A study of Rattus with 18 samples.

Results

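Expression of 9 genes of vessel growth and of endothelial transforming growth factor beta (TGF-beta) and bone morphogenetic protein (BMP) signalling was examined in infarcted rat hearts given an infusible extracellular matrix (iECM) or a control. The genes were Vegfa, Fgf2, Nrp1, Amot, Acvrl1 and Bmp7 in the authors' deposited day 1 table and Pdgfb, Lrg1 and Smad6 in the authors' deposited day 3 table. They were chosen from the 34 genes that these tables list, 11 at day 1 and 23 at day 3, so their presence there and their size are descriptions and not tests. None of the 9 was listed on both days, and the tables shared 0 genes in all.

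The 18 samples were total RNA from the free wall of the left ventricle in Sprague-Dawley rats, hybridized to an immunology panel of NanoString probes, which count barcoded molecules without amplification. Infarction lasted 35 min in every group. The agent and time point labels give 4 control and 5 iECM samples at day 1, and 4 control and 5 iECM samples at day 3. The treatment text of all 18 samples names iECM, although 8 of them carry the agent label control, and no label says what control hearts received. The labels do not say whether the samples came from separate rats, and p-values then reflect sample spread that may be technical.

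Growing vessels depend on endothelial cells that answer secreted ligands. VEGF-A and FGF2 drive endothelial proliferation and sprouting, and PDGF-B released by endothelium recruits pericytes that stabilise new vessels. In the endothelium, TGF-beta and BMP ligands signal through serine/threonine kinase receptors such as ALK1, the product of Acvrl1, to SMAD transcription factors, and SMAD6 is an inhibitory SMAD induced by and acting against BMP signalling. After infarction these pathways take part in capillary regrowth and in scar formation.

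The value table holds 394 numbered rows of counts without gene names, so no heart-by-heart level can be given for any of the 9 genes, and no endothelial marker could be read to check the vessel content of the tissue. Total counts over the 380 gene rows ranged from 816397 to 1687688 per sample. In bulk tissue, fewer cells of a type and less RNA per cell cannot be told apart. The values below are therefore the authors' log fold changes, each with the likelihood ratio score (lr), the p-value and the q-value (a p adjusted for multiple testing) that stand beside it. Each deposited p equals the upper tail of a chi-square distribution with 1 degree of freedom at the deposited lr, with a largest relative gap of 4.34e-13. This allows an approximate standard error, the deposited fold change divided by the square root of its lr, and an approximate 95% interval. Both are derived from the authors' deposited values and not from replicates seen here.

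The tables do not state the base or the direction of the fold change. The counts were used to infer them, with the deposited values paired to those of unnamed rows in a model of the counts that has a background term. The mean distance was 0.104 for log2 of iECM over control at day 1, against 0.469 for the opposite direction, and 0.124 against 0.416 at day 3. With the natural logarithm the distances were 0.265 at day 1 and 0.243 at day 3. That model was chosen after the data were seen, and pairing with edgeR's fit did not settle the direction on either day. Positive values below are read as higher with iECM on this basis, and no row was named from the pairing.

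At day 1 the ligands Vegfa, Fgf2 and Bmp7 and the scaffold gene Amot had positive values in the authors' deposited table, and the receptors Nrp1 and Acvrl1 had negative ones. The 11 genes listed for day 1 were 2.94% of the 374 tested, with 1.87% positive and 1.07% negative. None of the 6 genes passed a q of 0.05, a level that 0.267% of the tested genes reached. All 6 had the same q of 0.989 in the authors' deposited table. For exact p-values and no true difference, 18.7 of the 374 would fall under an unadjusted 0.05, more than the 11 listed.

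Vegfa, the ligand of the main endothelial growth factor receptors, had a log2 fold change of 0.25 in the authors' deposited table, a 1.19-fold difference. Its approximate standard error was 0.098, with an interval from 0.06 to 0.44, from the authors' deposited lr of 6.47. The deposited p of 0.0110 was the second smallest of the day 1 table, while the size was the smallest of the 11 genes there.

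Fgf2, a fibroblast growth factor that acts on endothelium and fibroblasts, stood at 0.36 in the authors' deposited table, a 1.29-fold difference, with an approximate interval from 0.06 to 0.67. Its p of 0.0198 was the third smallest in the authors' deposited day 1 table. Bmp7, a BMP ligand known to oppose TGF-beta driven fibrosis in rodent models, stood at 0.83 in the authors' deposited table, a 1.77-fold difference. Its approximate standard error was 0.41 and its interval ran from 0.03 to 1.62, with p = 0.0418 in the authors' deposited table. The 3 ligands thus shared a sign, and the intervals of all 3 overlapped.

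Nrp1 encodes neuropilin-1, a co-receptor that strengthens VEGF-A signalling. It stood at -0.27 in the authors' deposited table, a 1.21-fold difference, with an approximate interval from -0.51 to -0.03 and p = 0.0306. Acvrl1 encodes ALK1, an endothelial type I receptor for TGF-beta family ligands. Its value in the authors' deposited table was -0.29, a 1.22-fold difference, with an interval from -0.56 to -0.02 and p = 0.0373. These 2 receptors were the only members with negative values on either day, and their intervals overlapped almost wholly, with approximate standard errors of 0.12 and 0.14.

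Amot encodes angiomotin, an angiostatin-binding scaffold of endothelial cell migration and of Hippo signalling. It had the largest value of the 9 genes in the authors' deposited tables, 0.88, a 1.84-fold difference, with p = 0.0342. Its approximate standard error of 0.42 was also the largest of the 9, and the interval ran from 0.07 to 1.70. Vegfa, Fgf2, Nrp1 and Acvrl1 had small values with small errors, whereas Amot and Bmp7 had large values with large errors. This follows from the way the errors were derived, since the lr of these genes ran only from 4.14 to 6.47 in the authors' deposited table. Every listed gene had a p under 0.05, so each approximate interval excludes no difference by construction.

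**Figure D1:**
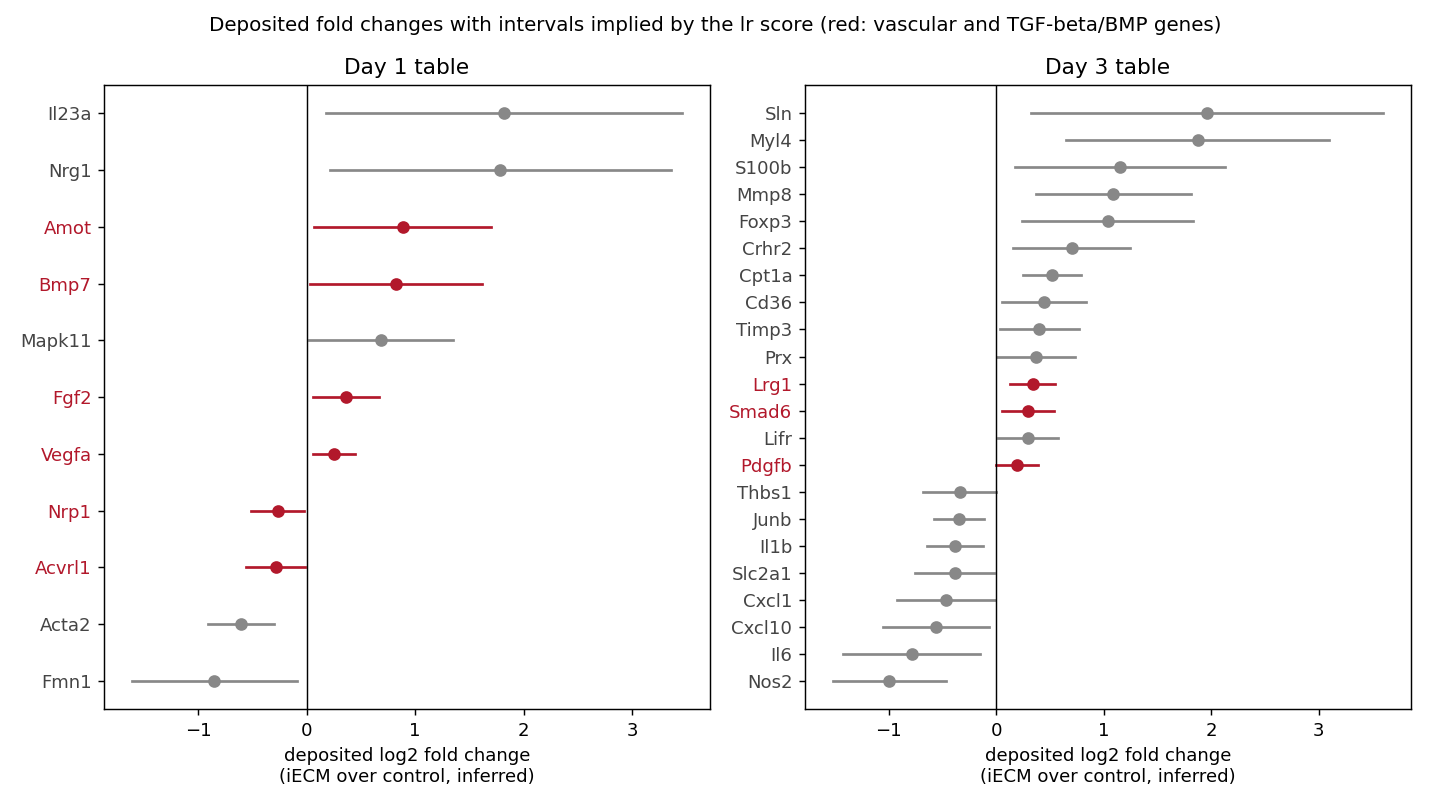
Each point is a gene's log2 fold change in the authors' deposited table for day 1 (left) or day 3 (right), and each bar is the approximate 95% interval from the deposited lr score. The 9 vascular and TGF-beta/BMP genes are in red, Amot and Bmp7 have the widest red bars, and Rnase1 is not drawn because its listed value of 25.9 cannot be read as a size.

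At day 3 the authors' deposited table held Lrg1, Smad6 and Pdgfb, all with positive values. The 23 genes listed there were 6.15% of the 374 tested, with 4.01% positive and 2.14% negative. None of the 3 passed a q of 0.05, a level that 0.535% of the tested genes reached. The 23 listed were more than the 18.7 that exact p-values and no true difference would give. The spread of such a count was not computed for either day, so the gap is not read as a difference. The sizes of Lrg1, Smad6 and Pdgfb were among the 5 smallest of the table, at ranks 19, 21 and 23 of 23.

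Lrg1 encodes leucine-rich alpha-2 glycoprotein, a secreted protein that in mice shifts endothelial TGF-beta signalling towards ALK1. It stood at 0.34 in the authors' deposited table, a 1.27-fold difference, with an approximate standard error of 0.11 and an interval from 0.13 to 0.55. The deposited lr of 10.4 was the highest among the members. Its p of 0.00124 was the fourth smallest in the authors' deposited day 3 table. Its q of 0.116 was the lowest of the 9 in the authors' deposited tables, and still above 0.05.

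Smad6, the inhibitory SMAD, stood at 0.30 in the authors' deposited table, a 1.23-fold difference with an approximate interval from 0.05 to 0.54. Its p of 0.0173 ranked 12 of 374, and its q was 0.540 in the authors' deposited table. Pdgfb, the pericyte-recruiting ligand, had the smallest value of either table, 0.20, a 1.15-fold difference. Its approximate interval in the authors' deposited table ran from 0.002 to 0.39, with p = 0.0472 and q = 0.646. Pdgfb was thus the member nearest to the edge of the day 3 table, whose largest listed p was 0.0486. The intervals of Lrg1, Smad6 and Pdgfb overlapped, and no order among them can be read.

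**Figure D2:**
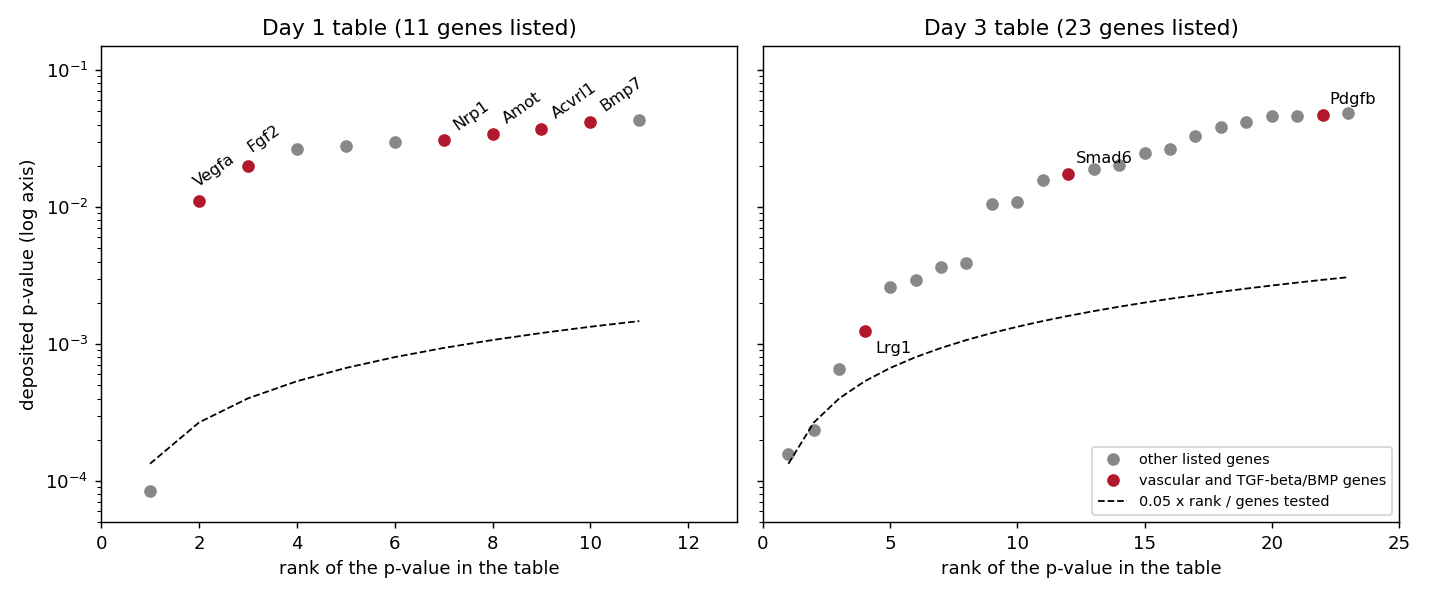
Deposited p-values on a log axis against their rank in the authors' day 1 and day 3 tables, with the 9 genes in red. The dashed line is 0.05 times the rank over the 374 genes tested, and a q is under 0.05 where a gene's point, or one at a later rank, lies below it. All 9 red points and every point at a later rank than a red one lie above the line.

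The sizes can be set against those of the unnamed rows. The deposited values come from a tool that is not given, so they and the fits below may differ in scale, and the shares are descriptions. In edgeR's fit of the deposited counts, the median absolute log2 fold change between iECM and control hearts was 0.09 over 371 rows at day 1 and 0.13 at day 3. A change at least as large as the 0.25 listed for Vegfa was found in 45 rows (12.1%) at day 1, and one as large as the 0.36 of Fgf2 in 21 rows (5.66%). The -0.27 of Nrp1 was matched in size by 38 rows and the -0.29 of Acvrl1 by 35 rows. At day 3, 40 rows (10.8%) were as large as Lrg1, 58 (15.6%) as large as Smad6 and 113 (30.5%) as large as Pdgfb. A fold change of the size of Pdgfb was therefore common among all rows, and those of the other 2 were less so. In the model with a background term more rows were as large: 71 (19.0%) for Vegfa, 47 (12.6%) for Fgf2, 65 for Nrp1 and 57 for Acvrl1 at day 1. At day 3 that model gave 74 (19.8%) for Lrg1, 97 (25.9%) for Smad6 and 142 for Pdgfb.

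No row reached the sizes listed for Amot and Bmp7 in edgeR's fit, whose largest absolute value at day 1 was 0.64. Nor did any row reach those listed for Nrg1, Fmn1, Il23a and Mapk11 at day 1. The absence of such rows is therefore not read as Amot and Bmp7 exceeding the rest of the panel. In the model with a background term, 19 of 374 rows (5.08%) were as large as Amot and 21 (5.61%) as large as Bmp7. Of those, 7 and 8 were rows that never exceeded background, taken as 2 SD above the negative-control mean of the same sample, as were 41 of all gene rows. Whether the probes of Amot and Bmp7 are among them is not known, because the rows carry no names, and the part of low counts in these 2 values was not tested. For rows at background the median standard error in edgeR's fit was 0.31 at day 1, and for the other rows it was 0.18.

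**Figure D3:**
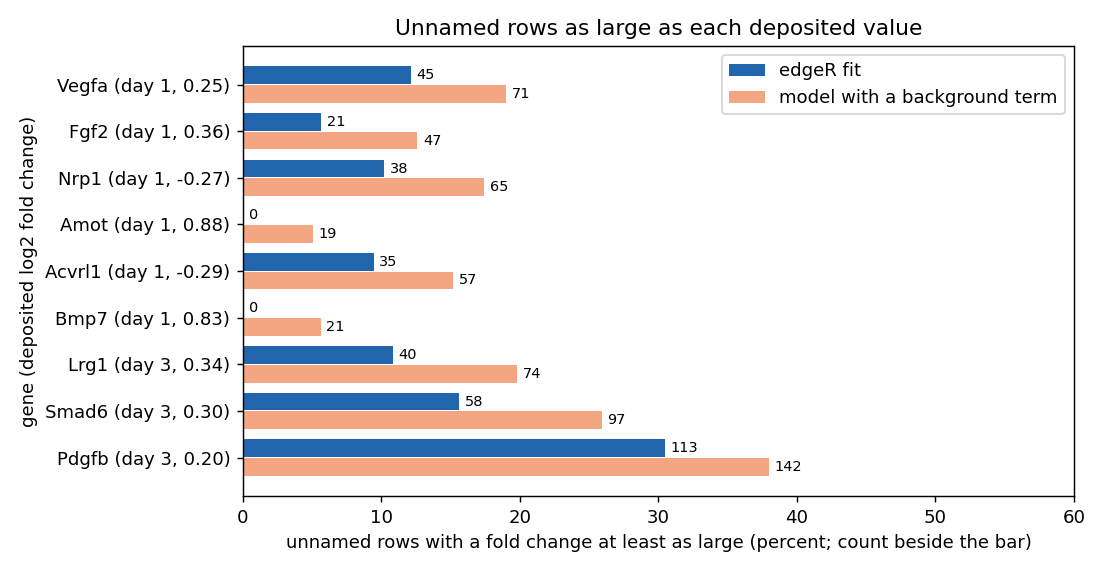
Share of unnamed rows (percent, with the count beside each bar) whose absolute log2 fold change was at least that listed for each gene, in edgeR's fit of 371 rows (blue) and in the model with a background term (orange, 374 rows). Amot and Bmp7 have no blue bar, and Pdgfb has the longest bars, at 113 and 142 rows.

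Across the 371 unnamed rows tested, edgeR's quasi-likelihood test on the deposited counts called 0.0% at an adjusted p of 0.05 for iECM against control at day 1, at day 3 and for the difference of the effect between the days. Unadjusted p-values under 0.05 numbered 3 at day 1, 11 at day 3 and 10 for the difference. With positive-control scaling these were 0, 3 and 1. Without control replicate 2 of day 1 they were 19, 6 and 34. DESeq2 and limma also called 0 in each comparison. In the model with a background term, the likelihood ratio score gave more rows at an unadjusted p under 0.05, 17 of 374 at day 1 and 25 at day 3. The value of each of the 9 genes on the day it was not listed is not known. A difference of the 9 genes between the days was not tested, since no row is named.

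Other genes of the same pathways were counted from lists, beside the 2.94% of all tested genes listed at day 1 and the 6.15% at day 3. Of 24 genes listed as VEGF, FGF, PDGF and angiopoietin ligands and receptors, 4 were in the authors' deposited day 1 table and 1 in that for day 3. All of them were among the 9 genes, and 1 of them, Amot, is a scaffold gene and neither ligand nor receptor. The lists were chosen with earlier results of these data known, so these counts are descriptions and not tests. Of 39 TGF-beta and BMP signalling genes, the authors' deposited day 1 table held Acvrl1 and Bmp7, and that for day 3 held Lrg1, Smad6 and Thbs1. Thbs1 encodes thrombospondin-1, which activates latent TGF-beta and inhibits angiogenesis, and stood at -0.34 with p = 0.0486 in the authors' deposited table. Which other list members are on the panel is not known, so no share of a list can be set against those percentages.

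Markers of cell types were counted the same way, with the same limit. Of 11 endothelial marker genes 0 were in the authors' deposited day 1 table, and 1, Rnase1, was in the day 3 table with the unreadable value of 25.9. Rnase1 was not among the endothelial markers first planned for this count, and none of those was in either table. Of 8 pericyte and smooth muscle markers, the authors' deposited day 1 table held Acta2, a smooth muscle and myofibroblast actin, and the day 3 table held none. In the authors' deposited table Acta2 had -0.61 and a q of 0.0314, the gene there that passed a q of 0.05. None of 8 fibroblast markers was in the authors' deposited tables. At day 3 they held Mmp8 of 10 macrophage and neutrophil markers, Foxp3 of 7 lymphocyte markers, and Myl4 and Sln of 11 cardiomyocyte markers, all with positive values. Levels of Pecam1, Cdh5 and the other defining endothelial markers are not known, and the part of endothelial or smooth muscle content in the values of the 9 genes was not tested.

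The authors' deposited day 3 enrichment tables show which processes the 3 day 3 genes were assigned to. They hold 707 gene ontology terms and 38 KEGG pathways for the 23 listed genes, each at an adjusted p under 0.05. Terms overlap, and the 707 hold 204 distinct sets of listed genes. The authors' test compared with 17962 background genes for gene ontology and 9373 for KEGG, more than the 374 genes that could have been listed. At least 1 of Pdgfb, Lrg1 and Smad6 was in 181 terms (25.6%) of the authors' deposited gene ontology table, which reduce to 74 distinct gene sets. In 20 of the 181, a member was the single listed gene, and a term could thus be listed on 1 gene.

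Pdgfb was in 156 terms of the authors' deposited gene ontology table, the fifth most of the 23 genes, although its fold change was the smallest there. Its leading term was response to mechanical stimulus, the first in the authors' deposited table, with 10 genes and an adjusted p of 5.67e-09. Besides wound healing, leukocyte chemotaxis, response to hypoxia and smooth muscle cell proliferation, its terms in the authors' deposited table included the platelet-derived growth factor receptor-beta signaling pathway. Pdgfb shared 61 of its 156 terms (39.1%) with Il1b and 44 (28.2%) with Il6 in the authors' deposited table, both inflammatory cytokines with negative values. These were 17.1% of the terms of Il1b and 15.8% of those of Il6. Of all 707 terms in the authors' deposited table, 356 held Il1b and 278 held Il6, so sharing terms with them was not particular to Pdgfb. By name, the terms of Pdgfb covered leukocyte chemotaxis and wound healing as well as vessels.

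Lrg1 was in 22 terms of the authors' deposited gene ontology table and Smad6 in 25. Thbs1 was in 20 of the 22 terms of Lrg1 (90.9%), which were 11.1% of the 180 terms of Thbs1 in the authors' deposited table. Of the 25 terms of Smad6, 11 (44.0%) held Thbs1 and 8 (32.0%) held Lrg1. Only the regulation of cellular response to growth factor stimulus held Pdgfb, Lrg1 and Smad6 together, with Thbs1 as its other gene, adjusted p = 0.00380 in the authors' deposited table. In 5 terms Smad6 was the single listed gene, among them mitral valve morphogenesis, adjusted p = 0.0412 in the authors' deposited table.

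Vessel and endothelial terms numbered 22 in the authors' deposited gene ontology table, leaving out those on growth factor production, and 16 of them held Pdgfb or Lrg1. Smad6 was in 0 of the 22. Regulation of vasculature development led these terms, with 7 genes, adjusted p = 2.07e-05 in the authors' deposited table. Lrg1, Pdgfb, Cd36 and Crhr2 of that term had positive values, and Cxcl10, Il1b and Thbs1 had negative ones. Angiogenesis held Lrg1, Cd36 and Crhr2 with positive values and Cxcl10, Il1b and Thbs1 with negative values, adjusted p = 8.71e-04 in the authors' deposited table. Of the 16 terms with a member, 14 held genes of both signs, as did 147 of all 181 gene ontology terms with a member. Mixed signs were thus not particular to vessel terms, and membership in a term gave no common direction.

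The same held when terms that promote and terms that restrain vessel growth were read apart. Positive regulation of angiogenesis held Lrg1 with a positive value and Il1b and Thbs1 with negative values, adjusted p = 0.0105 in the authors' deposited table. Negative regulation of vasculature development held Pdgfb, Cd36 and Crhr2 with positive values and Cxcl10, a chemokine that restrains endothelial growth, and Thbs1 with negative values, adjusted p = 4.79e-05 in the authors' deposited table. Endothelial cell proliferation held Lrg1 and Pdgfb, both positive, and Nos2 and Thbs1, both negative, adjusted p = 9.97e-04 in the authors' deposited table. Positive regulation of endothelial cell proliferation held Lrg1 and Pdgfb alone, adjusted p = 0.0271 in the authors' deposited table.

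Terms named for TGF-beta, BMP or SMAD numbered 14 in the authors' deposited gene ontology table, and 9 of them held Lrg1 or Smad6. Pdgfb was in 0 of them. The 9 terms hold 3 distinct gene sets: Lrg1, Smad6 and Thbs1 together, Lrg1 and Thbs1, and Smad6 alone. Regulation of the TGF-beta receptor signaling pathway held all 3 genes at an adjusted p of 0.00356, and its positive regulation held Lrg1 and Thbs1, adjusted p = 0.00544 in the authors' deposited table. Negative regulation of pathway-restricted SMAD protein phosphorylation, a step that inhibitory SMADs block, held Smad6 alone, adjusted p = 0.0462 in the authors' deposited table. Thbs1, an activator of latent TGF-beta, thus had a negative value, and Lrg1 and the inhibitory SMAD gene Smad6 had positive ones. None had a q under 0.05. Lrg1 and Thbs1 had opposite signs within the positive regulation term, and a direction of the pathway was not tested.

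**Figure D4:**
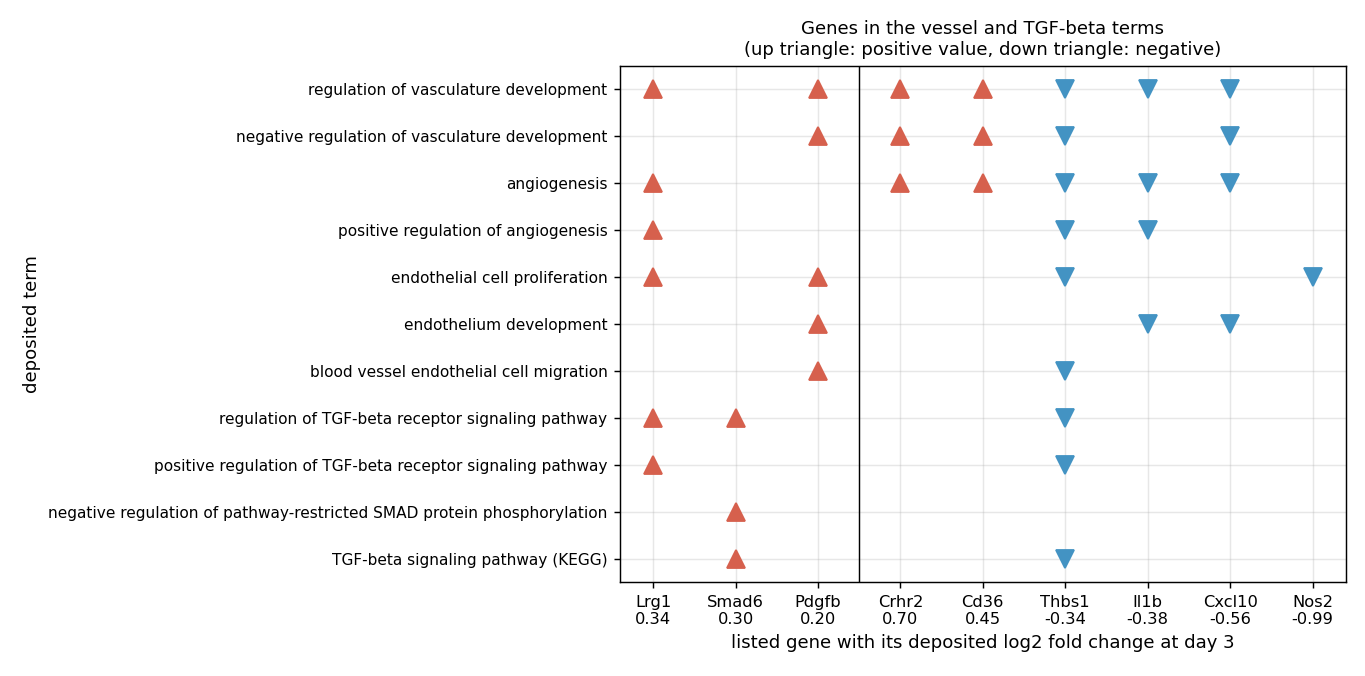
Listed genes (columns, with the deposited day 3 log2 fold change) in 10 gene ontology terms and 1 KEGG pathway (rows) of the authors' day 3 tables, chosen after they were seen. Upward triangles are positive and downward triangles negative values. Lrg1, Smad6 and Pdgfb stand left of the line, and Thbs1 is negative in 9 of the 11 rows.

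In the authors' deposited KEGG table, 6 of 38 pathways (15.8%) held a member. Smad6, given by the identifier 367100, was in the TGF-beta signaling pathway with Thbs1, adjusted p = 0.0419 in the authors' deposited table. Pdgfb, given by 24628, was in 5: JAK-STAT signaling with Il6 and Lifr at an adjusted p of 0.0130, Kaposi sarcoma-associated herpesvirus infection, renal cell carcinoma, EGFR tyrosine kinase inhibitor resistance and microRNAs in cancer, up to adjusted p = 0.0433 in the authors' deposited table. Lrg1 was in 0 pathways. Each of the 6 pathways held genes of both signs, and none held more than 1 of the 3 members.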

How the data were processed

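Samples were grouped by the agent and time point labels, and replicate numbers follow accession order. The authors deposited a value table of raw counts (whole numbers, totals differing between samples) and tables with a log2 fold change (base inferred), per gene the lr score with its p-value and q-value, per the file headers, made with a tool not given in the sources used here. From the deposited p-values and q-values, 374 genes had been tested. KEGG identifiers were matched through NCBI RefSeq's gene table (GRCr8), which held all 9 members.

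A block of 6 rows was read as positive and a block of 8 as negative controls, from the values. No 2 samples were identical among 153 pairs. The other 380 rows were fitted with edgeR 4.0.16 (filterByExpr with a minimum count of 10, TMM, quasi-likelihood test, 4 group means, Benjamini-Hochberg adjustment at 0.05). This fit was also run on simulated counts, for the day 3 comparison alone. The differences put in were larger than those listed for most of the 9 genes, so recovery of sizes like theirs was not tested. DESeq2 1.42.0, limma 3.58.1 on log2 CPM computed from the deposited counts, other scalings and left-out samples were alternatives. The model with a background term is a negative binomial fit per row and day that adds the mean negative-control count and scales on the positive-control rows and the last 6 rows. Members and the 8 gene lists were chosen with earlier results of these data known. All 9 members are named, and other genes where the lists or shared terms hold them.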

Additional observations from a re-analysis of the deposited data

How the results depend on the processing

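No paired analysis was possible because no label links a control sample to an iECM sample. The 0 calls of edgeR at day 1, at day 3 and for the difference between days stayed 0 under each alternative tool, scaling, filter and left-out sample. Rows at an unadjusted p under 0.05 ranged from 1 to 19 at day 1 (19 without control replicate 2) from 3 to 25 at day 3 (25 without iECM replicate 4) and from 7 to 34 for the difference (34 without control replicate 2 of day 1) when 1 sample was left out. Under the other alternatives they ranged from 0 to 5, 3 to 12 and 1 to 14. The model with a background term lay outside the ranges of the other alternatives at both days, and within those of the left-out samples. By its likelihood ratio score, 17 of 374 rows at day 1 and 25 at day 3 had an unadjusted p under 0.05. At day 1, 11 of them were higher and 6 lower with iECM, and at day 3, 17 were higher and 8 lower. The rows under an unadjusted 0.05 in edgeR's fit leaned the other way. There 0 were higher and 3 lower with iECM at day 1, and 3 were higher and 8 lower at day 3. The count of members at q under 0.05 was 0, also at q under 0.1 and with Bonferroni adjustment, and 1 (Lrg1) at an unadjusted p under 0.01. Of 181 gene ontology terms with a member, 75 had an adjusted p under 0.01, 102 held 3 or more listed genes and 21 held 2 or more members. Of 6 pathways these were 0, 3 and 0.

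The direction of the deposited values was read from a distance, iECM over control minus the reverse, where negative favours iECM over control. With edgeR it was 0.0044 at day 1 and 0.0464 at day 3, opposite to the direction used. Leaving out samples moved it from -0.266 to 0.0652 at day 1 and from -0.0902 to 0.0872 at day 3. At day 1 it was -0.0173 on the test score alone, -0.0178 with DESeq2, -0.0110 in natural log and -0.0188 in log10, but 0.0238 on the fold change alone, 0.0184 with the nearest row and 0.0032 without TMM. At day 3 it was -0.0858 on the fold change alone, 0.129 on the score alone, -0.0186 with the nearest row, -0.1045 with DESeq2, -0.0444 without TMM, 0.0487 in natural log and 0.0641 in log10. The pairings added after seeing the data gave negative values: -0.0150 and -0.1185 with background subtracted, -0.365 and -0.2925 with the background model, -0.0798 and -0.158 on its fold change alone, and -0.293 and -0.234 in natural log (day 1 and day 3 in each pair). The cause of these differences was not tested. No precision from depth can be given for the 9 genes, whose rows are unnamed.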
